A study of Homo sapiens with 9 samples.

Results

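GREM1 and the bone morphogenetic protein (BMP) genes around it were examined by RNA-seq in SNU-398 cells, a line of human hepatocellular carcinoma (HCC) cells, after stable overexpression of 2 forms of the homeobox transcription factor EMX1. The 9 members, of 60642 gene names listed, were taken by name: the secreted BMP antagonists GREM1, NOG and CHRD, the ligands BMP2, BMP4 and BMP7, and the target genes ID1, ID2 and ID3. GREM1 was chosen by its rise in EMX1-FL cells, so its values in that comparison are given as a description only, and its values in the other comparisons share libraries with it. Of the 9 members, 8 had counts high enough to be tested, the exception being BMP2.

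The libraries fell into 3 groups of 3. Vector control cells were wild type by their labels. EMX1-FL cells carried the full-length transcript of EMX1, and EMX1-X1 cells carried its isoform with an alternative terminal exon. Cells of the overexpression groups received their EMX1 form by lentivirus and were selected with puromycin, a treatment that the labels list for the controls too, and no label describes a line as a single clone. All were grown in the same medium with serum, and the labels do not say whether the 3 libraries of a group came from separate cultures. A figure legend of the paper that covers RNA-seq of these lines speaks of 3 biological replicates, without saying what was replicated. The p-values therefore measure the spread between these libraries, which may be technical. Fewer cells of a type and less RNA per cell cannot be told apart in such bulk libraries.

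BMPs are secreted ligands that bind paired type I and type II serine/threonine kinase receptors. The receptors phosphorylate SMAD1, SMAD5 and SMAD9, which join SMAD4 in the nucleus and switch on target genes, the ID genes first among them. Gremlin-1, noggin and chordin bind BMPs outside the cell and keep them from their receptors, and in the liver BMP6 is best known for setting hepcidin, the hormone of iron balance, while stromal cells are the usual source of gremlin-1.

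Library depth was between 21562703 and 25197970 counted read pairs. EMX1 itself checked the labels, at 9.34, 9.99 and 12.9 counts per 1000000 (CPM) in vector control, 251, 135 and 145 CPM in EMX1-FL and 145, 294 and 288 CPM in EMX1-X1 libraries, and counts per gene do not tell the EMX1 forms apart. The 9 libraries were divided into clusters A and B by the sign of their score on the first principal component (35.6% of the variance). Such a cut can be made in any data, and here the groups do not explain it. Cluster A held vector control 1 and 2, EMX1-FL 2 and 3 and EMX1-X1 1, and cluster B held the other 4 libraries. In each group the cluster B libraries had the higher EMX1 CPM, so cluster and EMX1 level cannot be told apart within a group. Differences are also given within clusters below. The clusters were drawn from these same libraries, so p-values from fits with the cluster as a covariate may be too small. Of 9 hepatocyte and hepatoblast markers, 8 were at 10 counts or fewer in every library and AFP, TTR and FGB were at 0, and their summed level was 0.569 to 1.06 TPM in vector control, 1.93 to 3.4 TPM in EMX1-FL and 1.16 to 2.63 TPM in EMX1-X1 libraries, mostly from ALB at 10 to 53 counts. This low sum was higher in both overexpression groups than in vector control, as GREM1 was, but its EMX1-FL and EMX1-X1 ranges overlapped. Its part in the results was not tested. TPM, transcripts per 1000000, is a level per length. The 8 fibroblast and stellate cell markers summed to 852 to 1163, 866 to 1285 and 948 to 1206 TPM in the same order. LUM (437 to 953 TPM) and COL3A1 (296 to 378 TPM) led. DCN reached 25.1 and COL1A1 23.3 TPM, COL1A2, PDGFRA and PDGFRB stayed at 1.47 TPM or less, and THY1 had 1 to 7 counts. Of the mesenchymal markers, VIM stood at 703 to 1116 TPM and FN1 at 33.1 to 62.5 TPM. CDH2 reached 18.1, SNAI2 15.8 and ZEB1 1.28 TPM. Of the epithelial markers, EPCAM reached 8.57 and CDH1 2.39 TPM, and KRT8 and KRT18 had 2 counts or fewer.

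The text uses 2 thresholds. The study's threshold for a differentially expressed gene is an unadjusted p under 0.05 together with a log2 fold change of 1 or more in either direction, and a stricter one asks the same fold with a Benjamini-Hochberg adjusted p under 0.05 over the 18574 genes tested by edgeR. CPM use TMM-normalized library sizes, and a fold change compares CPM between groups. Values of a group follow the order of its libraries 1, 2 and 3.

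The GREM1, CHRD and BMP4 genes passed the study's threshold in at least 1 comparison, and the 250 bases upstream of a RefSeq start site (GRCh38.p14) are shown for these 3 for that reason. Of the 9 members, 6 had entries, with 9 windows in all, among them 2 for GREM1 and 3 for BMP4. The windows shown are that of the first GREM1 start site (chr15:32717754-32718003, plus strand), whose last 30 bases lie in the longest GENCODE transcript, which starts 30 bases before the gene start of the count table, the CHRD window (chr3:184379804-184380053, plus strand) and that of the BMP4 start site furthest upstream (chr14:53955051-53955300, minus strand). Capitals mark GGCGCC, a GC-rich element that BMP-activated SMAD proteins are known to bind. Both GGCGCC and TAATTA, a core of homeodomain binding sites, read the same on either strand and do not overlap each other.
GREM1: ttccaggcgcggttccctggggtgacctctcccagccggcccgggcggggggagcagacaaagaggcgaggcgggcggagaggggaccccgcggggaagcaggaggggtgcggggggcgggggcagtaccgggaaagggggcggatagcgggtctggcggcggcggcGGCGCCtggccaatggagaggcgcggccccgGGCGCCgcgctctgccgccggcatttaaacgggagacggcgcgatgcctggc
CHRD: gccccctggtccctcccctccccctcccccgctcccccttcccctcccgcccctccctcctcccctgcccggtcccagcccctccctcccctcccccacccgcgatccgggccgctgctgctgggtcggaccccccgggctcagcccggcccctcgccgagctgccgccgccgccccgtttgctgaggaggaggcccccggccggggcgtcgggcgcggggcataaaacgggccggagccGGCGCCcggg
BMP4: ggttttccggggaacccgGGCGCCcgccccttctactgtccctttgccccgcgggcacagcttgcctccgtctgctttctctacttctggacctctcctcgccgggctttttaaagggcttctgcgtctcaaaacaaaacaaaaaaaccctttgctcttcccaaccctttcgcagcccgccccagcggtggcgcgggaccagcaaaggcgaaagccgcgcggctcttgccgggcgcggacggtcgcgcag
GGCGCC was in 3 of the 9 member windows, those printed above, the other windows of GREM1 and BMP4 having no match, and in 16.4% of all 35116 RefSeq windows of this length. TAATTA was in 0 of the 9 and in 4.35% of all windows, which says only that these letters are not in these windows. GREM1 held GGCGCC at 83 and 52 bases before its start site, CHRD at 10 bases and BMP4 at 232 bases. The 3 printed windows had a GC content of 76.8%, 81.6% and 63.6% in the order above.

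GREM1 was higher in every EMX1-FL library than in every vector control library, and the EMX1-X1 libraries lay between. The gene (GRCh38 chr15:32718004-32745106, plus strand) encodes gremlin-1, which binds BMP2, BMP4 and BMP7. Its counts were 485, 529 and 367 in vector control, 1164, 1646 and 1329 in EMX1-FL and 1102, 858 and 850 in EMX1-X1 libraries. On the depth-normalized scale these were 20.8, 23.1 and 15.1 CPM, 51.6, 69.3 and 61.4 CPM, and 45.9, 35.7 and 34.3 CPM. No library of one group overlapped with a library of another.

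Against vector control, the level of GREM1 was 3.09-fold higher in EMX1-FL cells (log2 fold change 1.63, SE 0.22), the difference for which it was chosen. In EMX1-X1 cells it was 1.96-fold higher (log2 0.97, SE 0.21, adjusted p = 0.31), just under the fold of the study's threshold, and this comparison shares the vector control libraries with the one that chose the gene. Between the forms, EMX1-FL exceeded EMX1-X1 by 1.57-fold (log2 0.65, SE 0.21, adjusted p = 0.611), a comparison that shares the EMX1-FL libraries. With the cluster as a covariate the EMX1-X1 difference passed both thresholds (log2 1.12, adjusted p = 0.00194). The cluster was drawn from these same values, so that p may be too small and nothing is read from the pass. Within cluster A the 3 log2 differences were 1.57, 1.07 and 0.51, and within cluster B 1.77, 1.21 and 0.56. Each side of these held 1 or 2 libraries. As no library overlapped between groups, any split gives the same signs, so nothing is read from the likeness of the clusters. Cluster B libraries were lower than cluster A libraries in each group. The gaps were 0.53, 0.34 and 0.39 on the log2 scale in vector control, EMX1-FL and EMX1-X1 cells.

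**Figure D1:**
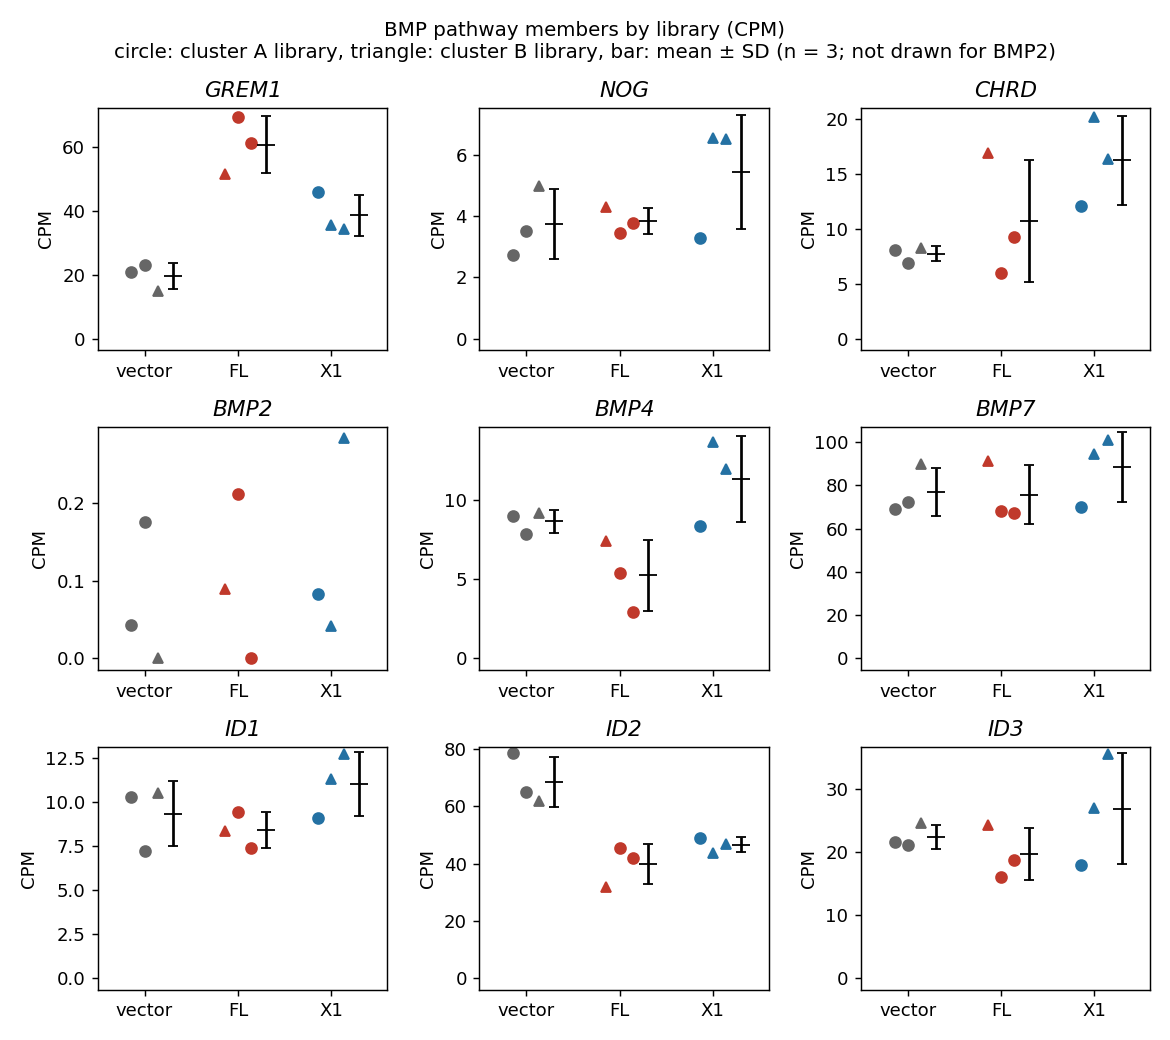
Each panel plots the CPM of 1 member in the 9 libraries (vector, vector control; FL, EMX1-FL; X1, EMX1-X1), with circles for cluster A, triangles for cluster B and bars for the mean ± SD of 3 libraries (not drawn for BMP2, which had 0 to 7 counts). GREM1 separates the 3 groups, ID2 sits lower in both overexpression groups than in vector control, and most other members overlap.

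Neither of the other antagonists passed the study's threshold in EMX1-FL cells. NOG (chr17:56593699-56595611) encodes noggin, which blocks the receptor contacts of BMPs, and measured 2.74, 3.53 and 4.99 CPM in vector control, 4.30, 3.45 and 3.79 CPM in EMX1-FL and 3.29, 6.53 and 6.50 CPM in EMX1-X1 libraries. These overlapped in all 3 comparisons, with log2 fold changes of 0.035 (SE 0.31, adjusted p = 0.999), 0.53 (SE 0.31, adjusted p = 0.655) and -0.50 (SE 0.31, adjusted p = 0.611) for, in turn, EMX1-FL and EMX1-X1 cells each against vector control and the first form against the second.

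CHRD (chr3:184380073-184390736) encodes chordin, which is cut by BMP1-like proteases. It measured 8.09, 6.94 and 8.24 CPM in vector control, 16.9, 6.02 and 9.24 CPM in EMX1-FL and 12.1, 20.2 and 16.4 CPM in EMX1-X1 libraries. All EMX1-X1 libraries exceeded all vector control libraries, whereas EMX1-FL 1 stood far above the other two of its group. CHRD passed the study's threshold in EMX1-X1 cells (2.09-fold, log2 1.06, SE 0.33) but not the stricter one (adjusted p = 0.505), and it differed by 0.47 (SE 0.33, adjusted p = 0.997) in EMX1-FL cells. Between the forms it differed by -0.60 (SE 0.33, adjusted p = 0.611), which was -1.08 (adjusted p = 0.0457, past both thresholds) without EMX1-FL 1 and -0.32 without EMX1-FL 2, with adjusted p from 0.0457 to 0.989 over the alternatives. The EMX1-X1 difference was 0.69 within cluster A and 1.14 within cluster B, and that of EMX1-FL was -0.0065 and 1.04, so the EMX1-X1 difference was larger in cluster B. With the cluster as a covariate it was 0.81, short of the threshold.

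Per length, the 3 antagonists stood close together in vector control cells, with NOG at 6.81 ± 1.60 TPM, GREM1 at 4.71 ± 1.20 TPM and CHRD at 4.11 ± 0.403 TPM (SD, n = 3), neighbours in that order lying within their spread. In EMX1-FL cells GREM1 led at 15.5 ± 2.38 TPM, over NOG at 7.55 ± 0.777 TPM and CHRD at 6.06 ± 3.06 TPM. All 3 lay within their spread in EMX1-X1 cells, NOG at 10.7 ± 3.66 TPM, GREM1 at 9.84 ± 1.64 TPM and CHRD at 9.24 ± 2.37 TPM. The GREM1 length used, 14784 bases, is that of all its exons joined, while its 3 GENCODE transcripts measure 623, 2648 and 14606 bases, so its TPM would be higher if a shorter transcript was the one present.

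Among the ligands, BMP2 was close to absent, with 1, 4 and 0 counts in vector control, 2, 5 and 0 in EMX1-FL and 2, 1 and 7 in EMX1-X1 libraries, where 3 counts amount to 0.121 to 0.139 CPM. By group means, BMP7 was the highest BMP ligand per length, at 49.5 ± 3.81, 52.2 ± 8.26 and 61.5 ± 11.2 TPM in the 3 groups. BMP7 encodes a ligand with a known role in kidney and bone, and its CPM of 69.1, 72.1 and 89.7, then 91.3, 68.2 and 67.4, then 70.1, 94.4 and 101 overlapped between all groups. Its log2 fold changes were -0.025 (SE 0.20, adjusted p = 0.999), 0.20 (SE 0.20, adjusted p = 0.774) and -0.23 (SE 0.20, adjusted p = 0.661), and the sign of the first changed under other scalings.

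BMP4, a ligand that patterns mesoderm and liver bud, had the largest log2 fold change between the EMX1 forms of the 8 members tested. It measured 8.99, 7.86 and 9.19 CPM in vector control, 7.45, 5.39 and 2.96 CPM in EMX1-FL and 8.36, 13.7 and 12 CPM in EMX1-X1 libraries. Every EMX1-FL library lay below every library of the other two groups, and EMX1-X1 overlapped with vector control. EMX1-FL was 2.16-fold below EMX1-X1 (log2 -1.11, SE 0.31), past the study's threshold but not the stricter one (adjusted p = 0.611). Against vector control the log2 fold changes were -0.72 (SE 0.31, adjusted p = 0.829) in EMX1-FL and 0.39 (SE 0.30, adjusted p = 0.721) in EMX1-X1 cells, and that of EMX1-FL was -1.05 without EMX1-FL 1 and -0.44 without EMX1-FL 3. Within clusters A and B, EMX1-FL differed from EMX1-X1 by -1.06 and -0.78, and the call was lost with the cluster as a covariate (log2 -0.95). Of the exon bases of BMP4, 16.3% are shared with an overlapping gene, AL138479.2, and counting used no strand option.

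As a ratio of TPM per library, GREM1 to BMP4 was 0.484, 0.615 and 0.345 in vector control, 1.45, 2.69 and 4.35 in EMX1-FL and 1.15, 0.544 and 0.597 in EMX1-X1 libraries. The EMX1-FL libraries were above all others, and GREM1, which was chosen for its rise, carries part of that ratio. A ratio of 1 has no meaning of its own here. The GREM1 length used was 14784 bases, and all ratios would be higher with its transcripts of 623 or 2648 bases.

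The ID genes encode helix-loop-helix proteins that hold bHLH transcription factors off DNA, and they are standard readouts of BMP and SMAD signalling. ID2 (chr2:8678845-8684461) measured 78.5, 65.2 and 61.9 CPM in vector control, 31.9, 45.5 and 42.0 CPM in EMX1-FL and 49.1, 43.8 and 46.8 CPM in EMX1-X1 libraries. All 6 overexpression libraries were below all vector control libraries. The log2 fold change was -0.78 (1.72-fold lower, SE 0.19, adjusted p = 0.216) in EMX1-FL and -0.56 (1.47-fold lower, SE 0.19, adjusted p = 0.536) in EMX1-X1 cells, both short of the fold of the study's threshold, and the forms overlapped (log2 -0.23, SE 0.19, adjusted p = 0.647). Within clusters A and B the EMX1-FL difference was -0.71 and -0.96. Both differences share the vector control libraries, and 6.55% of the exon bases of ID2 are shared with the antisense gene ID2-AS1.

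ID1 and ID3 overlapped between groups. ID1 measured 10.3, 7.20 and 10.5 CPM in vector control, 8.38, 9.44 and 7.39 CPM in EMX1-FL and 9.07, 11.3 and 12.7 CPM in EMX1-X1 libraries, with log2 fold changes of -0.15 (SE 0.22, adjusted p = 0.997), 0.24 (SE 0.22, adjusted p = 0.756) and -0.39 (SE 0.22, adjusted p = 0.611) in the 3 comparisons. ID3 measured 21.5, 21.0 and 24.5 CPM, then 24.2, 16.0 and 18.7 CPM, then 17.9, 27.0 and 35.5 CPM, with log2 fold changes of -0.19 (SE 0.25, adjusted p = 0.997), 0.26 (SE 0.25, adjusted p = 0.768) and -0.45 (SE 0.25, adjusted p = 0.611). Per length in vector control cells, ID2 stood at 109 ± 20.6 TPM, ID3 at 52.3 ± 1.87 TPM, ID1 at 26.5 ± 5.18 TPM and ID4 at 24.5 ± 4.98 TPM, and ID1 and ID4 did not differ beyond their spread.

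**Figure D2:**
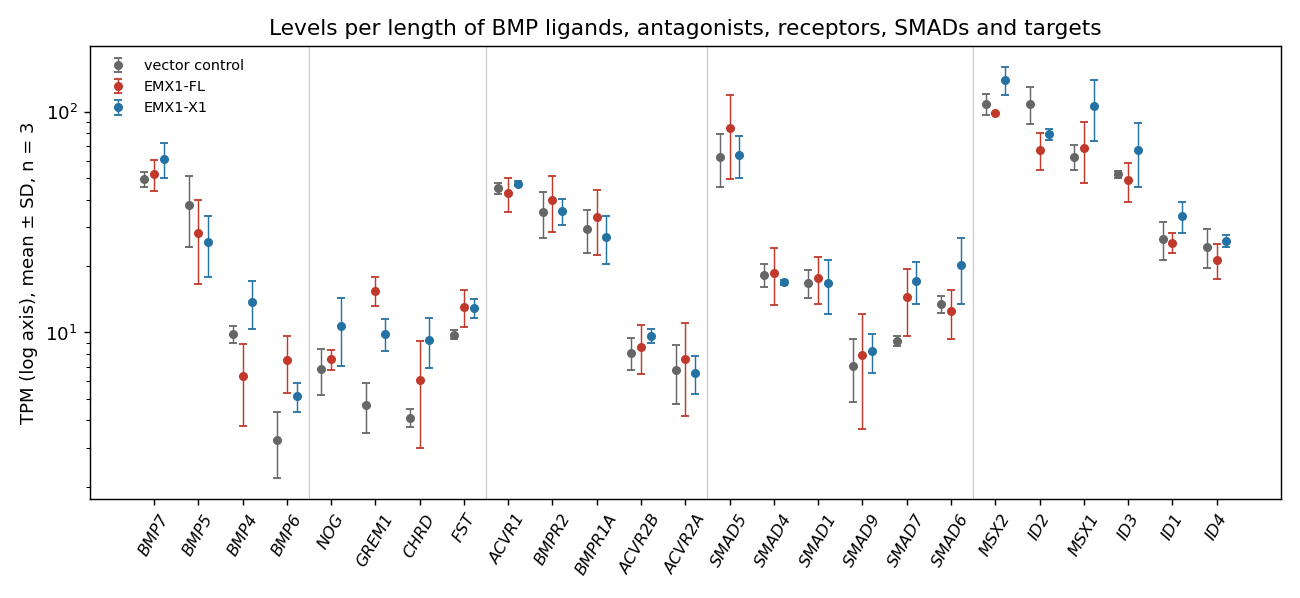
TPM on a log axis (mean ± SD of 3 libraries per group) for ligands, antagonists, receptors, SMADs with their inhibitors, and targets, separated by vertical lines. BMP7, BMP5, SMAD5, MSX2 and ID2 are among the higher genes, and GREM1 moves from 4.71 to 15.5 TPM between vector control and EMX1-FL cells.

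The remaining genes came from a list of 65 BMP pathway genes, of which 47 were tested. In EMX1-FL against vector control, 3 of the 47 were past the study's threshold with higher levels, against 2.04% of all genes tested, and 0 with lower levels, against 0.382%. One of the 3 was GREM1, which was chosen for this comparison. It was the 1 list gene past the stricter threshold, which it also passed under 8 of 19 alternatives, against 0.07% of all genes, and nothing is read from that. Of the 47, 9 did not overlap between groups, 6 above and 3 below, against 10.5% of all genes, and the list median of 0.047 was that of all genes tested, 0.045. The same fit placed 6 list genes higher and 2 lower at an unadjusted p under 0.05, and DESeq2 7 and 2.

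In EMX1-X1 against vector control, 3 of the 47 were past the study's threshold with higher levels, against 1.95% of all genes, and 0 with lower levels, against 0.544%. None passed the stricter threshold in edgeR, against 0.00538% of all genes. At an unadjusted p under 0.05 there were 10 list genes in edgeR, 9 of them higher, and 12 in DESeq2. MSX1, at an edgeR p of 0.0363, ranked 1143 of all genes tested, so nothing is read from these counts. DESeq2 gave GREM1 an adjusted p under 0.05. Of the 47, 12 did not overlap, 10 above and 2 below, against 14.7% of all genes, with a list median of 0.24 against 0.0098 over all genes.

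In EMX1-FL against EMX1-X1, 0 of the 47 were higher past the study's threshold, against 0.748% of all genes, and 1, BMP4, was lower, against 0.668%. The stricter threshold passed 0 in edgeR, against 0% of all genes, and 0 in DESeq2. At an unadjusted p under 0.05 there were 6 list genes in edgeR and 7 in DESeq2. MSX1, at an edgeR p of 0.0488, ranked 1382 of all genes tested, so nothing is read from these counts. Of the 47, 6 did not overlap, against 8.38% of all genes, and the list median was -0.15 against 0.021 over all genes. All 8 target genes tested had a negative log2 fold change here, with a median of -0.34, and the share of negative values over all genes is not given. Of the EMX1-FL libraries 1 was in cluster B, and of the EMX1-X1 libraries 2. Within cluster A, 7 of the 8 were negative (median -0.20), with HEY1 at 0.17 and ID3 at -0.052, and within cluster B 7 (median -0.45), with ATOH8 at 0.14. With the cluster as a covariate, 8 were negative (median -0.32).

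Of the secreted antagonists other than the members, edgeR put none past the study's threshold. BMPER, a modulator that binds BMPs in the extracellular matrix, was near it at low levels, at 0.343, 0.436 and 0.330 CPM in vector control and 1.12, 0.831 and 1.37 CPM in EMX1-X1 libraries (log2 1.57, SE 0.73, adjusted p = 0.612). It passed the study's threshold there under 7 of 19 alternatives, DESeq2 among them (log2 1.57, adjusted p = 0.434), and between the forms under 4 (DESeq2 log2 -1.51, adjusted p = 0.529). FST, the activin and BMP antagonist follistatin, and NBL1, a DAN-family antagonist, had log2 fold changes of 0.32 and 0.59 in EMX1-FL and 0.30 and 0.87 in EMX1-X1 cells. Of the chordin proteases, BMP1 and TLL2 were tested and overlapped in both comparisons with vector control. FST overlapped with vector control in EMX1-FL and not in EMX1-X1 cells, NBL1 in both, and NBL1 passed the threshold in EMX1-X1 cells without EMX1-X1 1 (log2 1.14).

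Among ligands outside the members, BMP6 was past the study's threshold in EMX1-FL cells. It measured 3.34, 2.31 and 5.03 CPM in vector control, 10.3, 5.94 and 6.56 CPM in EMX1-FL and 4.58, 5.98 and 4.89 CPM in EMX1-X1 libraries. The EMX1-FL libraries lay above vector control (2.13-fold, log2 1.09, SE 0.31, adjusted p = 0.361), while EMX1-X1 overlapped with it (log2 0.53, SE 0.31, adjusted p = 0.656), and the forms differed by 0.56 (SE 0.31, adjusted p = 0.611). The call was lost without EMX1-FL 1 (log2 0.81) or vector control 2 (log2 0.84). HAMP, which encodes hepcidin, had 0 counts in all 9 libraries, and the limit that a count of 0 allows is 3 counts, or 0.121 to 0.139 CPM per library, for counting error only. BMP5 was the second ligand per length at 37.8 ± 13.4 TPM in vector control, 28.3 ± 11.7 TPM in EMX1-FL and 25.8 ± 7.99 TPM in EMX1-X1 cells, all overlapping. In vector control its spread reached that of BMP7, and in vector control 1 it was above it, at 48.8 against 47.3 TPM.

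GDF6 and GDF7, ligands of joint and tendon development, also had positive values. GDF6 exceeded vector control in every library of both overexpression groups, with log2 fold changes of 0.72 (SE 0.24, adjusted p = 0.579) in EMX1-FL and 0.85 (SE 0.24, adjusted p = 0.469) in EMX1-X1 cells. GDF7 gave 0.55 (SE 0.28, adjusted p = 0.923) and 0.91 (SE 0.28, adjusted p = 0.487), with overlap in both. Neither passed the study's threshold.

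The receptors and the SMADs that carry the signal were expressed, and none passed the study's threshold. Of 7 receptors listed, 5 were tested, and their log2 fold changes in EMX1-FL cells ran from -0.18 for ACVR1 to 0.092 for BMPR2, all overlapping, with BMPR1A at 0.091, ACVR2A at 0.079 and ACVR2B at -0.0024. In EMX1-X1 cells they ran from -0.21 for BMPR1A to 0.16 for ACVR2B, all overlapping. BMPR1A, a type I receptor, measured 104, 103 and 77.2 CPM in vector control, 64.8, 121 and 118 CPM in EMX1-FL and 104, 76.7 and 65.7 CPM in EMX1-X1 libraries, and in each group its cluster B libraries were the lower ones. BMPR1B was not tested, at 0.379 CPM or less in every library. In vector control cells ACVR1 stood at 45.1 ± 2.39 TPM, BMPR2 at 35.1 ± 8.14 TPM and BMPR1A at 29.4 ± 6.42 TPM.

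SMAD1, SMAD5, SMAD9 and the shared partner SMAD4 had log2 fold changes of -0.017, 0.34, 0.061 and -0.065 in EMX1-FL cells, none past the study's threshold. In EMX1-X1 cells the values were -0.095, -0.056, 0.12 and -0.21, with SMAD4 just below vector control in every library. Level alone says nothing of phosphorylation, which RNA-seq does not measure.

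The co-receptor RGMA, a GPI-anchored BMP partner, was past the study's threshold in both overexpression groups at low counts. It had 16, 15 and 15 counts in vector control, 43, 34 and 16 in EMX1-FL and 24, 50 and 65 in EMX1-X1 libraries. The log2 fold changes were 1.06 (SE 0.47, adjusted p = 0.845) and 1.54 (SE 0.46, adjusted p = 0.487), no library overlapped with vector control, and EMX1-FL 3 was nearest to it. The EMX1-FL call was lost under 10 of 19 alternatives, among them without EMX1-FL 1, EMX1-FL 2, EMX1-X1 2 or any vector control library, and the log2 fold change ran from 0.23 to 1.35. That of EMX1-X1 was lost under 1, limma on log2(TPM + 1) (0.38).

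Of 7 inhibitors that act inside the cell or at its membrane, 1 passed the study's threshold, in EMX1-X1 cells. BAMBI, a pseudoreceptor that blocks type I receptors, measured 1.80, 1.92 and 3.34 CPM in vector control, 4.66, 2.74 and 4.90 CPM in EMX1-FL and 3.91, 4.90 and 6.78 CPM in EMX1-X1 libraries. It was past the study's threshold in EMX1-X1 cells (2.21-fold, log2 1.14, SE 0.34, adjusted p = 0.482) and overlapped with vector control in EMX1-FL cells (log2 0.80, SE 0.34, adjusted p = 0.828). The EMX1-X1 call was lost under 4 of 19 alternatives, with the cluster as a covariate (log2 0.97) and without EMX1-X1 3 (0.89), vector control 1 (0.97) or vector control 2 (1.00). SMAD7, the feedback inhibitor of receptor signalling, gave 0.57 (SE 0.26, adjusted p = 0.864) in EMX1-FL and 0.81 (SE 0.26, adjusted p = 0.536) in EMX1-X1 cells, and SMAD6 differed between the forms by -0.69 (SE 0.27, adjusted p = 0.611). None of these passed the stricter threshold.

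Other targets split by gene. MSX2 and MSX1, homeobox genes induced by BMP in many embryonic tissues, were at 109 ± 12.2 TPM and 62.5 ± 8.16 TPM in vector control, and between the forms differed by -0.50 (SE 0.18) and -0.62 (SE 0.28), both with adjusted p = 0.611. HEY1, a transcriptional repressor that Notch and BMP signals induce, exceeded vector control in every library of both groups, with log2 fold changes of 0.67 (SE 0.21, adjusted p = 0.529) in EMX1-FL cells and 0.76 in EMX1-X1 cells. ID4 differed by -0.29 (SE 0.19, adjusted p = 0.614) between the forms. The values of the targets therefore did not share 1 direction against vector control in EMX1-FL cells, where 2 were positive and 6 negative. In EMX1-X1 cells 6 were positive and 2 negative.

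**Figure D3:**
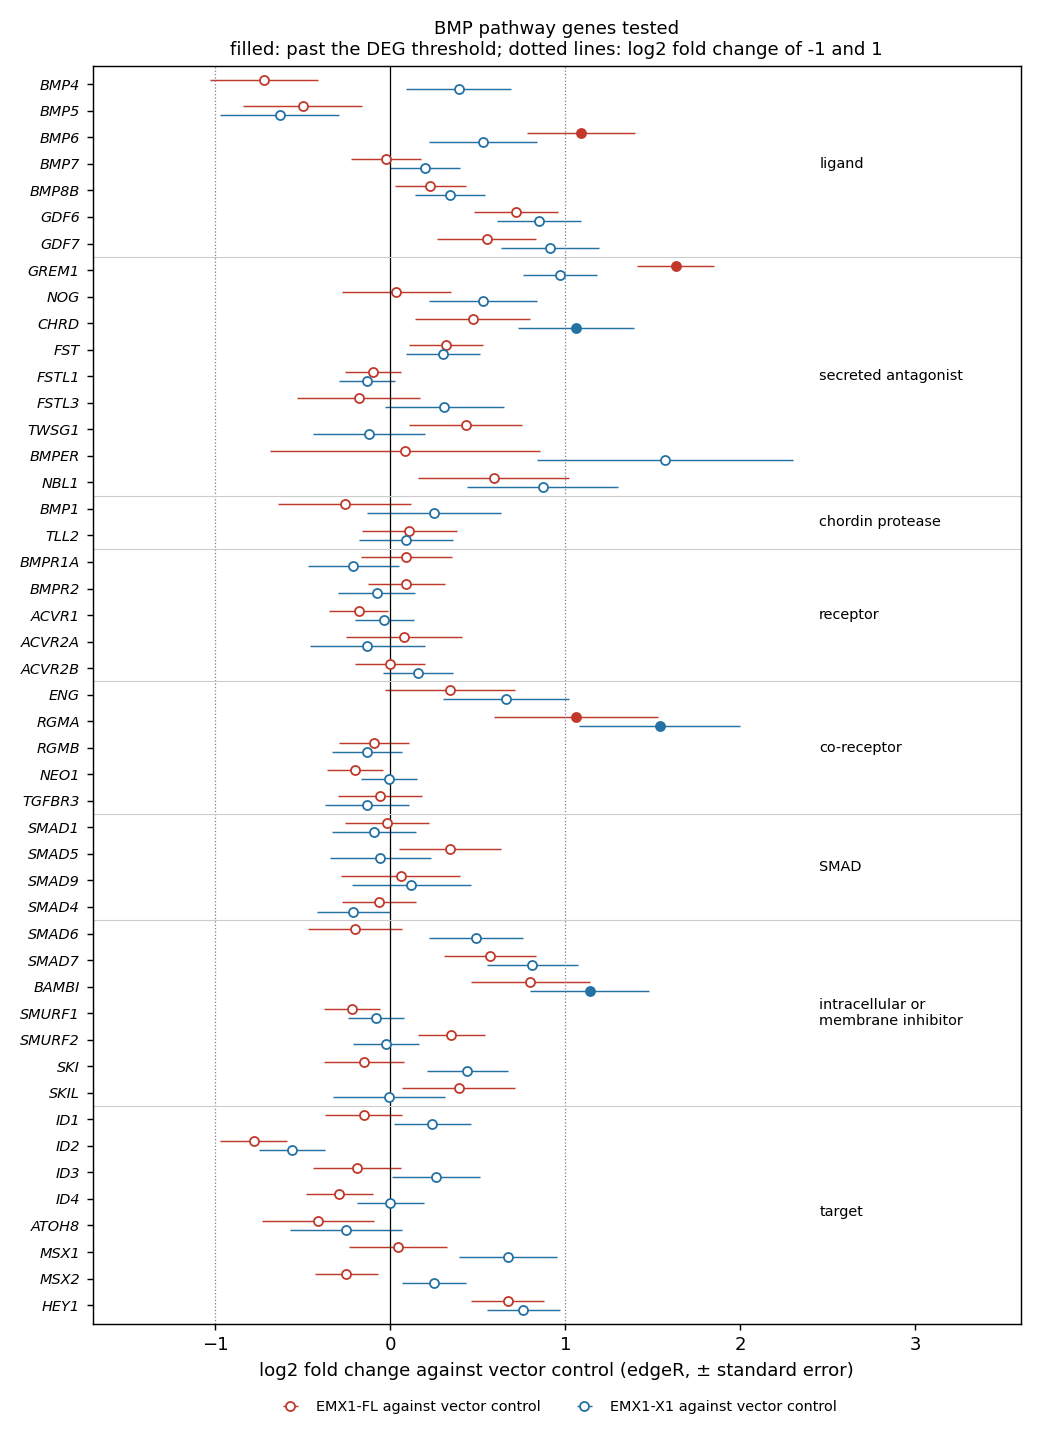
Log2 fold changes against vector control (edgeR, ± standard error, horizontal axis) for the 47 pathway genes tested, by role, in EMX1-FL (red) and EMX1-X1 (blue) cells, with filled points past the study's threshold. Receptors and SMADs sit near 0, and GREM1 at 1.63 in EMX1-FL cells is the rightmost red point.

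Over the 9 libraries, the genes whose log2 CPM were most like those of GREM1, by Pearson correlation among genes with a mean of at least 1 CPM, were KCTD12 (r = 0.983), SNAI2 (r = 0.983), COL12A1 (r = 0.982), TDO2 (r = 0.982) and HMCN1 (r = 0.979). They encode a GABA-B receptor auxiliary subunit, the transcriptional repressor slug, a fibril-associated collagen, tryptophan 2,3-dioxygenase and an extracellular matrix protein. These correlations describe 9 libraries in which 3 groups differ, and carry no test. SNAI2 measured 3.64, 3.19 and 2.64 CPM in vector control, 12.1, 12.9 and 13.3 CPM in EMX1-FL and 9.11, 7.02 and 6.62 CPM in EMX1-X1 libraries. Its groups stood in the same order as those of GREM1, and nothing is read from that, as it was picked for its likeness to GREM1. Among the other members, r with GREM1 was -0.775 for ID2, -0.537 for BMP4, -0.397 for ID3, -0.277 for ID1, -0.242 for BMP7, -0.077 for NOG and 0.159 for CHRD.

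**Figure D4:**
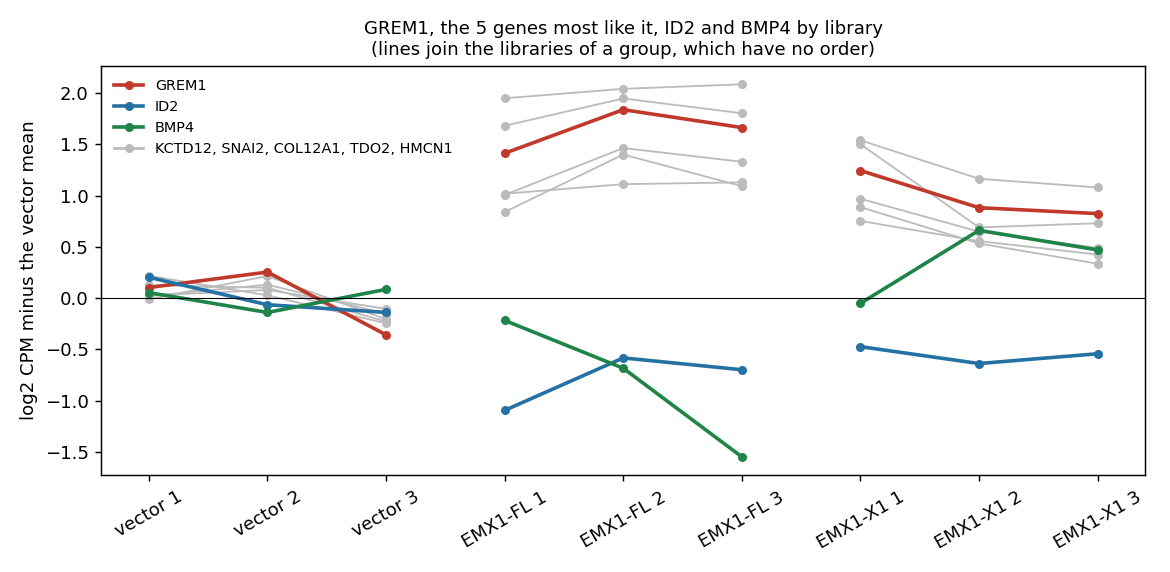
Log2 CPM minus the mean of vector control in each library for GREM1 (red), its 5 most similar genes (grey), ID2 (blue) and BMP4 (green); the libraries of a group have no order. GREM1 and its similar genes stand highest in EMX1-FL and between in EMX1-X1 libraries, while ID2 is below 0 in all 6 overexpression libraries and BMP4 is below 0 in all EMX1-FL libraries.

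On chromosome 15, none of 4 genes picked around GREM1 passed the study's threshold in EMX1-FL cells. Of these RYR3 lies furthest off, starting at position 33310945. Closer genes such as AC135983.3 (mean count 226) and GOLGA8N (mean count 88.6) are not described here. FMN1, a formin gene that lies 20438 bases away on the opposite strand, had log2 fold changes of 0.56 (SE 0.24, adjusted p = 0.837) in EMX1-FL and 0.48 (adjusted p = 0.632) in EMX1-X1 cells. SCG5, a neuroendocrine chaperone gene 20906 bases away, had 0.379 to 1.50 CPM in the 9 libraries with a value of 0.41 (log2) for EMX1-FL, where ARHGAP11A gave 0.22 and RYR3 -0.79, and all 4 overlapped with vector control there. In EMX1-X1 cells RYR3, the ryanodine receptor gene, was past the study's threshold at a low level (2.34-fold lower, log2 -1.23, SE 0.53, adjusted p = 0.599), below vector control in every library, and the other 3 overlapped. A non-coding gene that overlaps GREM1, AC090877.2, averaged 23.2 counts, and 2.48% of the exon bases of GREM1 are shared with it.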

How the data were processed

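The 9 RNA-seq libraries, 3 a group, were assigned to groups by their labels. The members and gene lists were chosen with earlier results of these data known. The authors deposited unnormalized counts for each gene name. The header of the count table names featureCounts 2.0.1 with Ensembl release 99, the submitters' processing notes featureCounts 2.0.6, STAR, fastp and hg38, and the methods of the paper RSEM. A second table that the authors deposited holds values on a log2 scale, log2(TPM + 1), and recomputing them from counts and gene lengths gave differences of at most 5.0e-06. Of 60642 gene names, 18574 passed filterByExpr. The quasi-likelihood test of edgeR 4.0.16 (R 4.3.3, TMM factors) was fitted to all 9 libraries with 1 mean per group, leaving 6 residual degrees of freedom, with Benjamini-Hochberg adjustment in each of 3 comparisons. The script was checked on simulated data. Depth was 21562703 to 25197970 counts per library, and the counts behind a gene set its precision. Named genes were the 9 members, list genes past the study's threshold, named receptors and SMADs, the 5 genes most like GREM1, its chromosomal neighbours and EMX1. Other genes named were chosen after their values were seen. Alternatives were DESeq2 1.42.0, limma 3.58.1 on TPM with a pseudocount of 0.1 or 1, RLE factors, library size alone, no filter, 10 counts in every library, only the 6 libraries compared, a cluster covariate, a replicate block and leaving out each library. Promoter windows came from RefSeq, GRCh38.p14, and transcript lengths from GENCODE.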

Additional observations from a re-analysis of the deposited data

How the results depend on the processing

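Of the results recomputed under 19 alternatives, GREM1 kept its direction in all comparisons, from 1.46 to 1.75 in EMX1-FL against vector control, 0.80 to 1.12 in EMX1-X1 against vector control and 0.52 to 0.80 between the forms. In EMX1-FL cells it was past the stricter threshold under 8 alternatives, and not with the replicate block, in limma on either TPM scale, with only the 6 libraries compared, or without EMX1-FL replicate 2 or 3, EMX1-X1 replicate 2 or 3 or any vector control replicate. GREM1 was chosen for its rise in this comparison, so nothing is read from these passes or from the kept direction. In EMX1-X1 cells its log2 fold change passed the study's threshold with the cluster covariate (1.12, adjusted p = 0.00194) and limma on log2(TPM + 0.1) (1.07, adjusted p = 0.411), and ranged from 0.80 to 1.09 without single libraries (1.03 and 1.04 without EMX1-X1 replicate 2 or 3, 1.01 and 1.09 without vector control replicate 1 or 2), over adjusted p from 0.00194 to 1. The number of pathway genes past that threshold in EMX1-FL against vector control, 3, was 1 in limma on log2(TPM + 1) and ran from 1 to 3 without single libraries, 1 without vector control replicate 2. In EMX1-X1 against vector control, also 3, it was 5 in limma on log2(TPM + 0.1), 1 in limma on log2(TPM + 1) and 2 to 5 without single libraries, 5 without EMX1-X1 replicate 1 and 2 without vector control replicate 2. Between the forms, 1 became 2 in DESeq2, 2 with no filter, 2 in limma on log2(TPM + 0.1) and 0 with the cluster covariate, and ran from 0 to 3, with 3 without EMX1-FL replicate 1, 2 without EMX1-FL replicate 2 and 0 without EMX1-FL replicate 3 or EMX1-X1 replicate 2. The log2 fold change of BMP4 between the forms was -0.95 with the cluster covariate, -0.83 without EMX1-FL replicate 3 and -0.95 without EMX1-X1 replicate 2. CHRD in EMX1-X1 cells was 0.81 with the cluster covariate, 0.98 in limma on log2(TPM + 1), 0.88 without EMX1-X1 replicate 2 and 0.97 without vector control replicate 2, and BMP4 in EMX1-FL cells was -1.05, past the threshold, without EMX1-FL replicate 1 and -0.44 without EMX1-FL replicate 3. CHRD between the forms ran from -1.08 without EMX1-FL replicate 1 to -0.32 without EMX1-FL replicate 2. RGMA in EMX1-FL cells lost its call under 10 alternatives, with the replicate block among them (1.05), RGMA in EMX1-X1 cells under 1, BAMBI under 4 and BMP6 under 3. ID2 in EMX1-FL cells ran from -0.91 to -0.65, with an adjusted p of 0.0115 in DESeq2, 0.00397 with the cluster covariate and 0.00397 to 0.861 over all alternatives. BMP7 in EMX1-FL cells changed sign with library size alone (0.0046), limma on log2(TPM + 0.1) (0.067) and log2(TPM + 1) (0.066), and ran from -0.18 to 0.086 without single libraries. NOG and CHRD in EMX1-FL cells and ID3 in EMX1-X1 cells changed sign only without single libraries, over -0.16 to 0.28, -0.027 to 0.72 and -0.0076 to 0.47. The cause of these changes was not tested. Same-numbered libraries did not deviate together on average (mean correlation -0.112 over 9 pairs, against 0.0542 over 18 others). Between EMX1-X1 and vector control the means went the other way (0.0853 against -0.0457). The labels do not say what same-numbered libraries share, and these correlations cannot settle it. With the replicate block the pathway genes past the threshold were 2, 3 and 1 in the 3 comparisons. Depth limited BMP2, BMPR1B, HAMP and RGMA, and 3 libraries a group limit all of the rest.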
